A study of Homo sapiens with 9 samples.

Results

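Retinoid metabolism and retinoid receptors were followed here through 9 genes: the retinol and retinal dehydrogenases DHRS9, RDH10, RDH11 and DHRS3, the retinal dehydrogenase ALDH1A3, the retinoic acid binding protein CRABP2, and the receptors RARA, RARG and RXRA. They were picked by symbol from 60671 counted genes with their values in these libraries known, so their levels and fold changes are described and not tested. All 9 were among the 13390 genes with enough reads to test. The series measured polyadenylated RNA of N/TERT cells, telomerase-immortalised human keratinocytes of the epidermis, to which no treatment was given per the labels. The libraries formed 3 groups of 3: wild-type N/TERT cells (Control), the same line with SGPL1 knocked out by CRISPR (KO), and the line overexpressing SGPL1 (OE). SGPL1 is the lyase that degrades the signalling lipid sphingosine 1-phosphate, and the series concerns the scaling skin disease seen when it is lacking. The number of edited clones, the construct and promoter used for overexpression, and the retinoid content of the medium are not given in the sources used here, and the p values measure the spread between these libraries.

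Retinol entering a keratinocyte is oxidised reversibly to retinaldehyde by short-chain dehydrogenases and then irreversibly to retinoic acid by enzymes of the ALDH1A family. CRABP2 passes retinoic acid to nuclear receptors of the RAR family, which bind DNA in pairs with RXR receptors, whereas FABP5 can carry it to the fatty acid receptor PPARD, and CYP26 enzymes degrade it. In epidermis, retinoic acid is known to restrain terminal differentiation, and RARG and RXRA are the main receptors.

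SGPL1 itself had 83.9, 95.1 and 98.3 counts per 1e6 counts (CPM) in the Control libraries, 58.8, 58.3 and 61.6 in KO and 1132, 1104 and 929 in OE, so the labels' order held in every library although KO cells kept SGPL1 reads. Libraries held 6317564 to 13330479 counts, with the fewest in KO replicate 3 and the most in OE replicate 3, and principal component 1 (56.8% of the variance) set KO apart from the rest. Long genes read lower in KO: relative to the mean of all libraries, log2 CPM changed by -0.154 to -0.133 per doubling of exon length in KO, by 0.0457 to 0.0905 in Control and by 0.00125 to 0.118 in OE. The KO log2 fold changes of single genes are therefore also given with the trend over exon length and GC content removed in every library, as "trend removed". All 12 keratinocyte markers were expressed, summing to 27765 to 28065 CPM in Control, 18240 to 20095 in KO and 28213 to 29511 in OE. Of 10 markers each, 1 fibroblast gene and 1 blood, endothelial or immune gene passed the filter on low counts. COL3A1, LUM and POSTN, the melanocyte genes TYR, DCT and SOX10, and PTPRC, CD3E, CD68, HLA-DRA and PECAM1 were at 0 in all libraries. Summed levels of the other lists (Control, KO, OE) were 21.7 to 28.3, 8.46 to 15.1 and 24.9 to 28.7 CPM for fibroblast genes, 89.96 to 101.2, 69.5 to 78.0 and 60.8 to 71.4 for 8 melanocyte genes (2 tested), 3.69 to 6.22, 5.94 to 9.13 and 1.55 to 2.19 for blood, endothelial and immune genes, and 3406 to 3548, 3049 to 3311 and 3195 to 3559 for 10 sebocyte and simple epithelial genes (7 tested). In bulk RNA, fewer cells of a type and less RNA per cell cannot be told apart.

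KO cells had more mRNA than Control cells for 3 enzymes that act on retinol and retinaldehyde and for CRABP2, the carrier that hands retinoic acid to its receptors. DHRS9 was 8.27-fold higher, CRABP2 3.92-fold, DHRS3 1.85-fold and RDH10 1.47-fold. ALDH1A3, which makes retinoic acid, was 1.36-fold lower in KO and 1.29-fold higher in OE than in Control. Mean levels of the 3 receptors were 1.19-fold to 1.27-fold lower in KO, but with the length and GC trend removed their log2 fold changes were -0.02 (RARA), 0.06 (RARG) and 0.41 (RXRA). In KO against Control, 51.9% of all tested genes were called at an adjusted p under 0.05 (26.0% higher, 25.9% lower), and of the 9 retinoid genes 4 were called higher, 3 lower and 2 were not called. With the trend removed those figures were 45.8% (25.3% higher, 20.5% lower) and 5, 1 and 3 genes. In OE against Control 18.6% of genes were called (9.28% higher, 9.34% lower), and 2 retinoid genes were higher, 1 was lower and 6 were not called; with the trend removed the background was 21.0% (10.8% higher, 10.2% lower) and the 3 counts were unchanged. In KO against OE 57.6% were called (28.6% higher, 29.0% lower), with 5 retinoid genes higher, 2 lower and 2 not called, or 53.2% (28.1% higher, 25.2% lower) and 5, 1 and 3 genes with the trend removed. The libraries of both groups did not overlap for 7 of 9 genes in KO against Control (59.5% of all genes), 3 in OE against Control (34.8%) and 7 in KO against OE (61.6%). These counts describe genes chosen with their values known, and nothing is read from them.

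**Figure D1:**
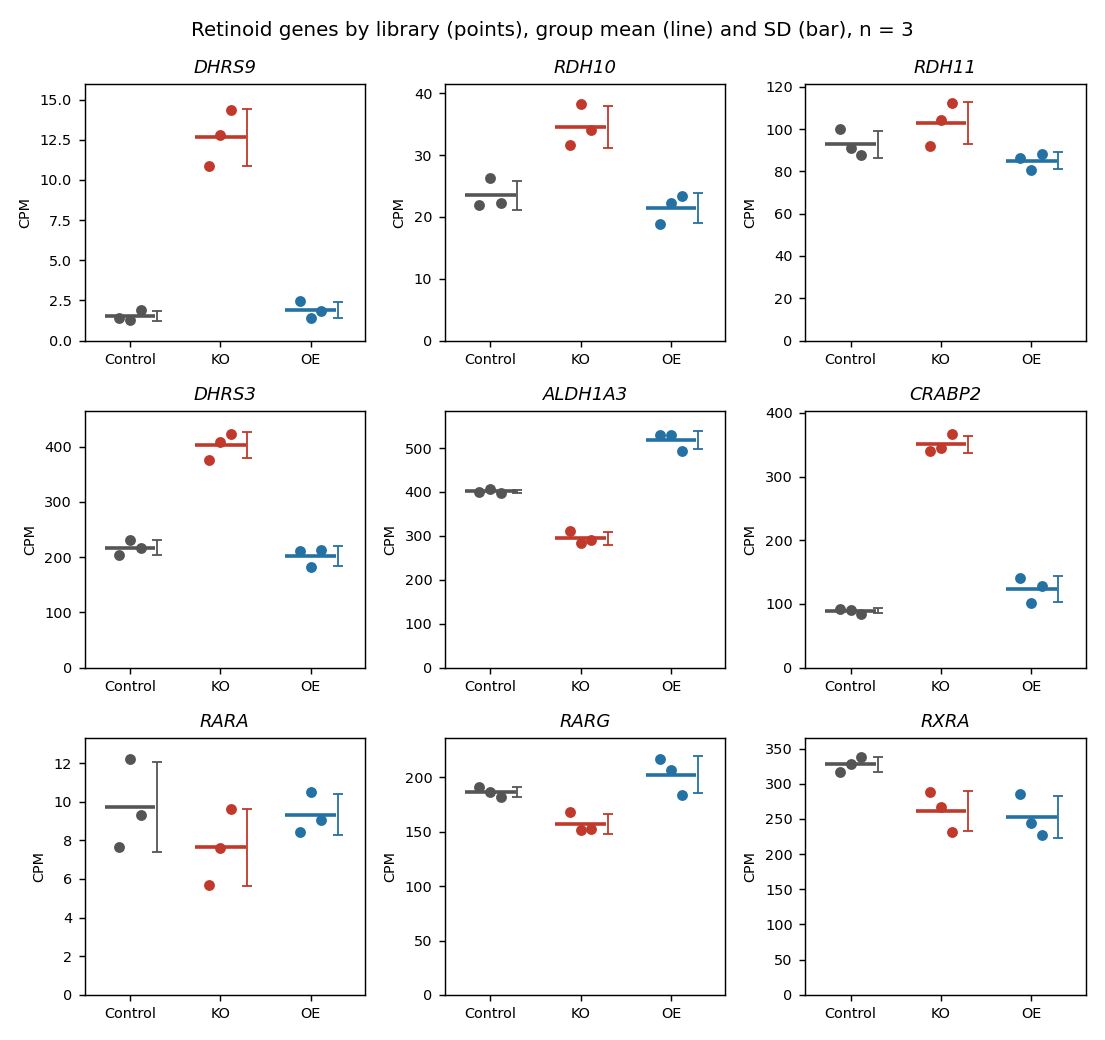
CPM (vertical axes, from 0) of the 9 retinoid genes in each library of the Control, KO and OE groups; points are libraries, lines are group means and bars are SD (n = 3). KO points lie above all others for DHRS9, RDH10, DHRS3 and CRABP2 and below all others for ALDH1A3 and RARG.

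The promoters of the 3 genes with the largest rise in KO against Control, DHRS9, CRABP2 and DHRS3, are shown as a description. Their shared direction in KO follows from that choice. In OE against Control their log2 fold changes were 0.30, 0.47 and -0.10, and the libraries of both groups overlapped for DHRS9 and DHRS3. Retinoid receptors bind short direct repeats in DNA. The sequences are from RefSeq (GRCh38.p14), 5′ to 3′ on the gene's strand, and run from 250 bases before an annotated start to that start or to the nearest annotated exon. Where a gene had several starts, the first listed window with a core receptor motif before the start was taken. Capitals mark that motif, searched on both strands as AGGTCA, as GGGTCA, as AGTTCA and as GGTTCA. The DHRS9 stretch is chr2:169080857-169081050 (plus strand, at a start inside the gene). That of CRABP2 is chr1:156705817-156706034 (minus strand, directly before the gene's annotated 5′ start). That of DHRS3 is chr1:12616796-12617039 (minus strand, inside the gene's longest annotated extent).
DHRS9: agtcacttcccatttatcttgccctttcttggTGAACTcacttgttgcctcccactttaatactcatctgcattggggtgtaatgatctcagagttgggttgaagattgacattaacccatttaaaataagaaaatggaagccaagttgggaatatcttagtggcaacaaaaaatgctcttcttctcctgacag
CRABP2: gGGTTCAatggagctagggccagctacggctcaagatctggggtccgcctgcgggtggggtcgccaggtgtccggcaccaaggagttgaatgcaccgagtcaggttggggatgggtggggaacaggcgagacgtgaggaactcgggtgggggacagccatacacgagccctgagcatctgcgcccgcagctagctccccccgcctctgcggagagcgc
DHRS3: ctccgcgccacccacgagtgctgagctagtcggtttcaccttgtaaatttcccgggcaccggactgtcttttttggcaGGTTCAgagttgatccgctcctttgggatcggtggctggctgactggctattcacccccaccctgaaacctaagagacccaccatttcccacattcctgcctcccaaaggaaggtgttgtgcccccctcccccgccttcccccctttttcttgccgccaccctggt
The motif began 218 bases before the start in DHRS9, where it lay on the opposite strand, 249 bases before it in CRABP2 and 172 bases before it in DHRS3. The full DHRS9 window held another match 32 bases after the start, also on the opposite strand. Another DHRS3 window (chr1:12596564-12596863), not printed, held AGGTCA on the opposite strand, 171 bases before its start. Of the 9 genes, 8 had RefSeq promoter windows, all but RDH10, with 16 windows of 300 bases in all. A motif was found in 6 of these 16 windows and for 5 of the 8 genes, beside 38.6% of all 35116 windows. A direct repeat of the motif spaced by 1, 2 or 5 bases, the spacings known for retinoid receptor pairs, was in 0 of the 16 windows and in 0.131%, 0.0399% and 0.0883% of all windows. These matches describe letters in short windows and say nothing about binding.

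DHRS9 (ENSG00000073737; GRCh38 chromosome 2, 169064789 to 169096167, plus strand) is a short-chain dehydrogenase that oxidises retinol. It had 1.42, 1.26 and 1.91 CPM in Control, 10.8, 12.8 and 14.4 in KO and 2.43, 1.41 and 1.82 in OE. Every KO library lay far above every other library, while Control and OE overlapped. The log2 fold change (edgeR, ± SE) was 3.04 ± 0.31 in KO against Control, 2.72 with the trend removed, and 0.30 ± 0.35 in OE against Control. These levels rest on few reads: 13, 12 and 17 counts in Control, 90, 114 and 85 in KO and 22, 14 and 25 in OE. The KO fold change stood at percentile 99.9 of all tested genes. Among the 10 tested genes on either side of DHRS9 on the chromosome, the median log2 fold change in KO was 0.10, and 0 of 20 exceeded that of DHRS9.

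RDH10 (ENSG00000121039; chromosome 8, 73294602 to 73325281, plus strand) encodes the retinol dehydrogenase that limits retinoic acid synthesis in embryos. It had 21.9, 26.2 and 22.2 CPM in Control, 31.6, 38.2 and 34.0 in KO and 18.8, 22.2 and 23.3 in OE. KO libraries were above all others, by a log2 fold change against Control of 0.56 ± 0.14 (trend removed 0.58), and OE and Control overlapped (-0.13 ± 0.14). The 20 neighbouring tested genes had a median log2 fold change of 0.41 in KO (trend removed 0.29), with values from -0.82 to 1.28. Of these, 9 were called higher and 4 lower, beside 26.0% and 25.9% of all tested genes, and 10 exceeded RDH10. What the neighbours have to do with RDH10 was not tested. DHRS9 and RDH10 thus made up unequal parts of their pooled level in each group. Per kb of exon, DHRS9 held 6.41% to 10.9% of the sum of both in Control, 32.2% to 37.6% in KO and 8.30% to 15.5% in OE (8.04% to 12.9%, 29.8% to 33.3% and 10.1% to 17.8% with the trend removed).

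RDH11 (ENSG00000072042; chromosome 14, 67676800 to 67695793, minus strand), which mainly reduces retinaldehyde, had 99.97, 91.0 and 87.6 CPM in Control, 92.2, 104.5 and 112 in KO and 86.2, 80.6 and 88.4 in OE. Both KO and OE overlapped Control, and every KO library was above every OE library. The log2 fold change was 0.15 ± 0.09 in KO (trend removed 0.06, and 0.08 without KO replicate 3) and -0.13 ± 0.09 in OE. In KO against OE it was 0.27 ± 0.09 as fitted and 0.18 with the trend removed.

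DHRS3 (ENSG00000162496; chromosome 1, 12567910 to 12618210, minus strand) reduces retinaldehyde back to retinol and is known as a gene that retinoic acid induces. It had 204.5, 231.0 and 216 CPM in Control, 376, 408 and 423 in KO and 211, 182 and 213 in OE. The KO libraries stood clear of the rest, and OE overlapped Control. The log2 fold change was 0.89 ± 0.08 in KO against Control, 0.91 with the trend removed, and -0.10 ± 0.08 in OE against Control. Of 20 neighbouring tested genes, 1 had a larger fold change than DHRS3 in KO, and their median was 0.03. Per kb of exon, DHRS3 held 72.0% to 75.1% of the summed level of the 4 short-chain dehydrogenases in Control, 79.7% to 80.7% in KO and 72.9% to 75.2% in OE (71.7% to 74.6%, 80.5% to 81.1% and 72.4% to 74.6% with the trend removed).

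ALDH1A3 (ENSG00000184254; chromosome 15, 100877714 to 100916626, plus strand) oxidises retinaldehyde to retinoic acid. It had 401, 406 and 398 CPM in Control, 312, 283 and 290 in KO and 529, 531 and 494 in OE. The 3 groups did not overlap, with KO below Control and OE above it. The log2 fold change was -0.45 ± 0.07 in KO (trend removed -0.34), 0.37 ± 0.07 in OE (trend removed 0.37) and -0.81 ± 0.07 in KO against OE (trend removed -0.70). Its relatives were nearly absent: ALDH1A1 had 10 counts, all in OE, ALDH1A2 had 4 counts over Control, 1 over KO and 3 over OE, and ALDH1A3 made up 99.8% to 100% of the ALDH1A level per kb over the 9 libraries. An antisense gene, ALDH1A3-AS1, shares 1715 of its 5335 exon bases, and had 148 counts over Control, 81 over KO and 270 over OE. The counting did not use strand, so reads in the shared bases could not be assigned to either gene by strand. They may be missing from the counts of ALDH1A3, which were 11063 over Control, 6822 over KO and 16824 over OE.

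CRABP2 (ENSG00000143320; chromosome 1, 156699606 to 156705816, minus strand) had 92.5, 90.9 and 84.7 CPM in Control, 341, 345 and 366 in KO and 141, 102 and 129 in OE. All KO libraries were far above the others, and the OE libraries were spread widely but all above Control. The log2 fold change was 1.97 ± 0.10 in KO against Control, 0.47 ± 0.10 in OE against Control and 1.499 ± 0.10 in KO against OE. Its transcript is short (1082 exon bases), and with the trend removed these values were 1.57, 0.52 and 1.04. None of the 20 neighbouring tested genes exceeded it in KO (0 of 20), and their median there was -0.15. In KO it stood at percentile 99.3 of all fold changes, and in OE at 89.6.

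FABP5, the fatty acid binding protein that can carry retinoic acid to PPARD, is not among the 9 genes and moved the other way in KO. It too was listed with earlier results of these data known. It had 44.2, 42.5 and 42.7 CPM in Control, 15.5, 16.4 and 17.4 in KO and 38.4, 37.3 and 49.5 in OE. It fell in KO by a log2 fold change of -1.39 ± 0.13 (edgeR quasi-likelihood test, adjusted p = 9.55e-09, trend removed -1.76), and the OE value was -0.04 ± 0.12 (adjusted p = 0.859). Its sign in OE turned without OE replicate 1 (0.02) or OE replicate 2 (0.04). Per kb of exon, the level of CRABP2 over that of FABP5 was 3.49 to 3.77 in Control, 37.0 to 38.6 in KO (35.4 to 36.7 with the trend removed) and 4.58 to 6.48 in OE. FABP5 has processed copies elsewhere in the genome, so how the authors' counting placed its reads is uncertain.

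Mean receptor levels in the edited groups were within 1.30-fold of Control. RARG (ENSG00000172819; chromosome 12, 53210567 to 53232980, minus strand) had 191.5, 187 and 182 CPM in Control, 168, 152 and 152 in KO and 217, 207 and 184 in OE. KO libraries were all below the others, and OE overlapped Control. Its log2 fold change was -0.25 ± 0.08 in KO and 0.12 ± 0.08 in OE, and with the trend removed the KO value had the opposite sign, 0.06. In KO against OE it was -0.36 ± 0.08 as fitted and -0.06 with the trend removed. RARA (ENSG00000131759; chromosome 17, 40309180 to 40357643, plus strand) had 7.64, 12.2 and 9.33 CPM in Control, 5.66, 7.62 and 9.64 in KO and 8.41, 10.5 and 9.04 in OE. All 3 groups overlapped, with -0.37 ± 0.24 in KO (trend removed -0.02, and -0.17 without Control replicate 2) and -0.06 ± 0.22 in OE. The OE sign rests on Control replicate 2, since the other Control libraries had 7.64 and 9.33 CPM beside an OE mean of 9.31. Antisense or overlapping genes share 21.4% of the RARA exon bases. RARB, a receptor gene that retinoic acid induces, had 0 to 6 counts in a library, too few to test. RARG accounted for 93.3% to 95.9% of the summed RAR level per kb over the 9 libraries.

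RXRA (ENSG00000186350; chromosome 9, 134317098 to 134440585, plus strand) is the partner of the RARs and of several other nuclear receptors. It had 316, 327 and 339 CPM in Control, 288, 266 and 231 in KO and 285, 244 and 228 in OE. As fitted, both edited groups were below all Control libraries and overlapped each other. The log2 fold change was -0.32 ± 0.09 in KO and -0.38 ± 0.09 in OE. These comparisons share the Control libraries. RXRA is long, with 12077 exon bases, and with the trend removed the KO value turned to 0.41 while the OE value was -0.33. In KO against OE it was 0.06 ± 0.09 as fitted and 0.74 with the trend removed. The direction in KO thus depends on how length and GC content are treated. RXRB, the other RXR gene with reads, had 50.8 ± 1.34 CPM (SD, n = 3) in Control, 49.6 ± 5.26 in KO and 53.2 ± 1.39 in OE (adjusted p = 0.833 and 0.724), and its KO sign also turned with the trend removed (-0.03 to 0.10). RXRG had no counts. The share of RXRA in the summed RXR level per kb was 66.1% to 68.6% in Control, 62.7% to 63.2% in KO and 58.6% to 62.7% in OE. With the trend removed it was 63.6% to 64.5% in Control, 67.8% to 69.3% in KO and 55.7% to 59.3% in OE, so that the KO share of RXRA was then above Control and not below it.

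**Figure D2:**
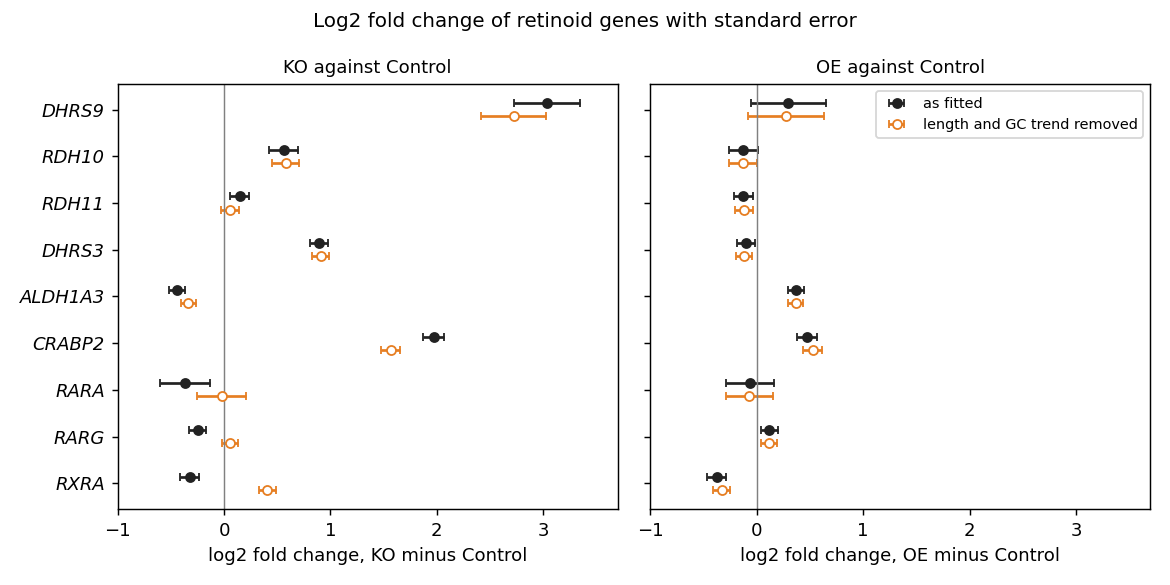
Log2 fold change (horizontal axis) of the 9 retinoid genes with its SE, for KO minus Control and OE minus Control; filled points are as fitted and open points have the length and GC trend removed. In KO, DHRS9 (3.04) and CRABP2 (1.97) lie farthest to the right, and the open points of RARG and RXRA lie on the other side of 0 from the filled ones.

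Compared per kb of all exon bases, CRABP2 had the highest mean level of the 9 genes in every group, at 82.6 ± 3.82 CPM per kb in Control, 324 ± 12.7 in KO and 115 ± 18.7 in OE (SD, n = 3). ALDH1A3 and DHRS3 followed in Control, at 75.2 ± 0.776 and 61.8 ± 3.78, and in OE, at 97.1 ± 3.88 and 57.5 ± 5.02. In KO the order of these enzymes was the reverse, with DHRS3 at 114.5 ± 6.79 and ALDH1A3 at 55.2 ± 2.80. RARG (36.4 ± 0.928 in Control), RXRA (27.1 ± 0.926), RDH11 (16.9 ± 1.16), RDH10 (4.40 ± 0.449) and RARA (2.05 ± 0.488) came next in that order in all groups. DHRS9 was last in Control (0.408 ± 0.0899) and OE (0.504 ± 0.137), and above RARA in KO (3.38 ± 0.471 against 1.61 ± 0.419). Neighbours in the order did not overlap between libraries except CRABP2 and ALDH1A3 in OE and RXRA and RDH11 in KO. Other genes share 33.3% of the exon bases of ALDH1A3 and 0% of those of CRABP2. If reads in shared bases were not counted, ALDH1A3 reads too low per kb. Which of ALDH1A3 and CRABP2 was higher in Control and OE is therefore uncertain. With the trend removed the order in each group was the same, and in KO the level of CRABP2 was 265 ± 10.5, that of DHRS3 116 ± 7.74, that of ALDH1A3 58.2 ± 3.13 and that of RXRA 30.02 ± 2.84 CPM per kb.

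**Figure D3:**
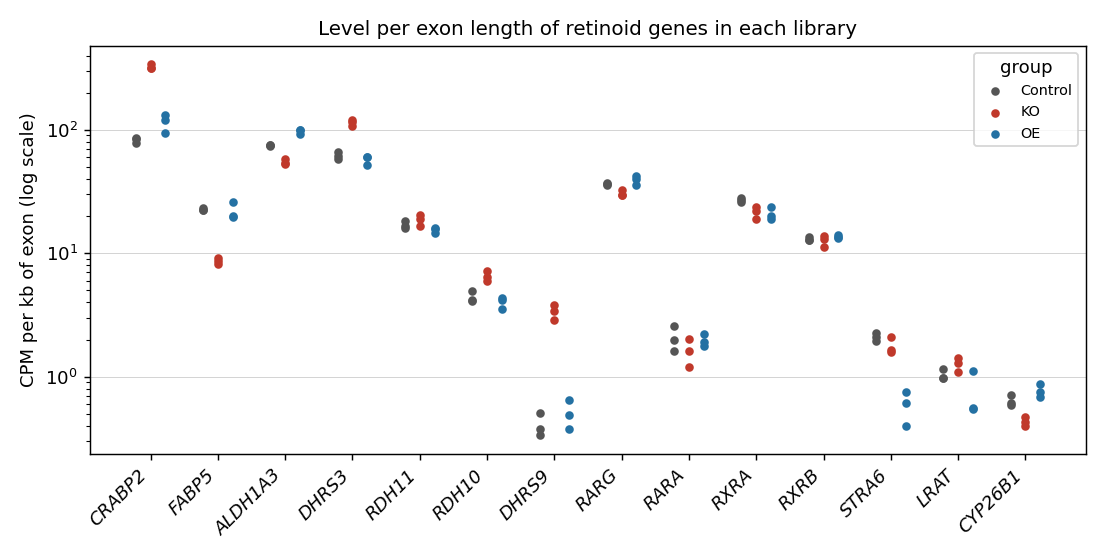
Level per exon length (CPM per kb of exon, log axis) of the 9 retinoid genes and of FABP5, RXRB, STRA6, LRAT and CYP26B1 in each library, coloured by group. CRABP2 has the highest mean in each group, although its OE points overlap those of ALDH1A3. DHRS9 in Control and OE lies near 0.4 to 0.5.

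The 3 protein-coding genes whose log2 CPM over the 9 libraries correlated best with each gene, out of 10155 with a mean of at least 5 CPM, are given as a description, since all 9 libraries fall into 3 groups. For DHRS9 they were ATF1 (Pearson r = 0.990), SPARC and CNIH1, and for DHRS3 SMIM30 (0.994), APMAP and NEU1. CRABP2 was most like SCCPDH (0.996), PCBD1 and CLPTM1L, and ALDH1A3 most like PHF20 (0.996), SEC63 and LPIN2. RXRA was most like ILRUN (0.994), KLF5 and PNPLA2.

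The rest of the pathway was followed through 117 genes in 7 lists, of which 79 were tested. The lists were written with earlier results of these data known, so their counts and p values are a description. In KO against Control 20 of them rose, 30 fell and 29 did not pass (23, 24 and 32 with the trend removed), or 63.3% called beside 51.9% of all genes. Their median log2 fold change was -0.15 (0.00 with the trend removed), beside -0.0047 and 0.0283 for all genes. In OE against Control 9 rose, 18 fell and 52 did not pass, or 34.2% beside 18.6%, with a median of -0.0195 beside -0.0066 for all genes. Genes named below outside the fixed choice, which took the smallest p values of each list and 13 genes by name, are marked as named after their values were seen. All adjusted p values are from edgeR's quasi-likelihood test over all 13390 genes. The counts of each list in KO stand beside 26.0% of all tested genes called higher and 25.9% lower (25.3% and 20.5% with the trend removed). In OE these shares were 9.28% and 9.34%.

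**Figure D4:**
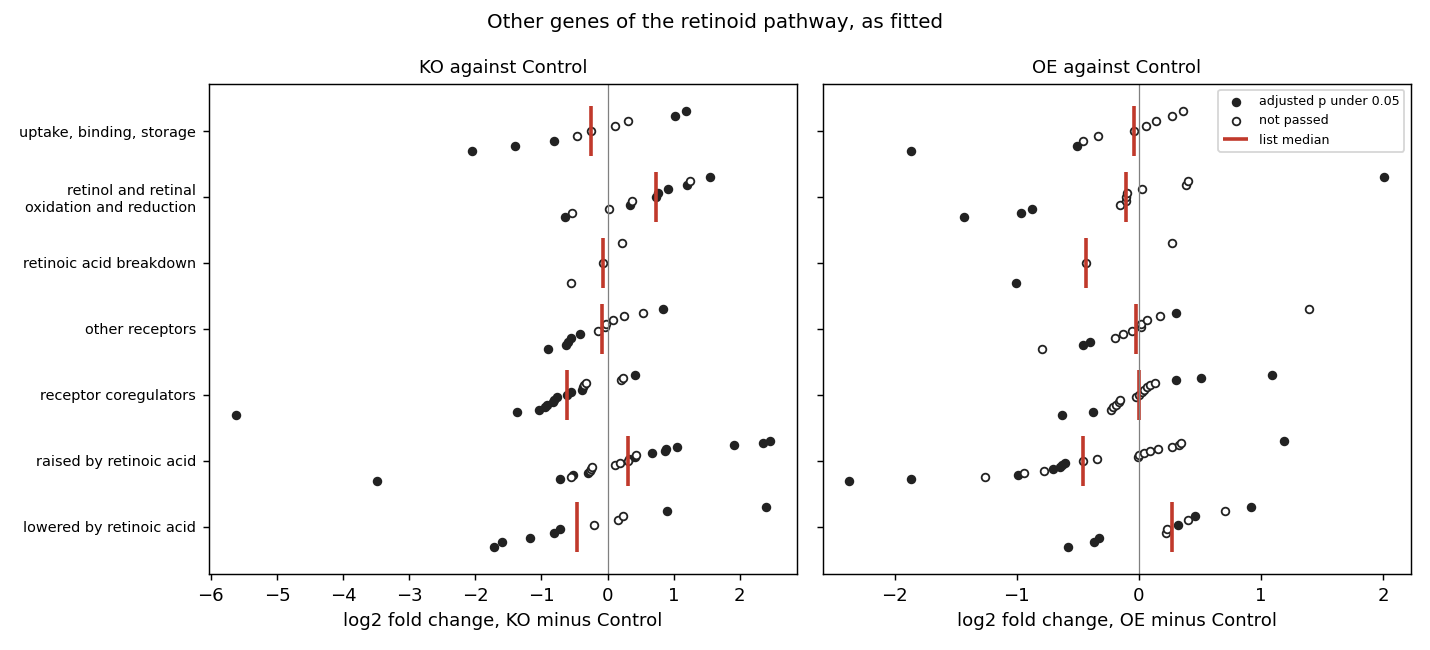
Log2 fold change (horizontal axes) of each tested gene of the 7 pathway lists, for KO minus Control and OE minus Control as fitted; filled points passed an adjusted p of 0.05, open points did not, red lines are list medians, and vertical offsets only separate the points. The median of the dehydrogenase and reductase list lies at 0.74 and that of the coregulator list at -0.61 in KO.

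Among 9 tested genes of retinoid uptake, binding and storage (18 listed), 2 rose, 3 fell and 4 did not pass in KO (3, 3 and 3 with the trend removed; median -0.25, trend removed 0.27). LRP1, a receptor that takes up chylomicron remnants, went from 156 ± 19.2 to 37.7 ± 7.54 CPM (-2.05 ± 0.13, trend removed -1.09, adjusted p = 1.91e-11). PNPLA4, a retinyl ester hydrolase, rose (1.02 ± 0.17, trend removed 0.70, adjusted p = 2.55e-05), as did the carotenoid oxygenase BCO2, named after its value was seen (1.19 ± 0.33, trend removed 1.20), and the lipase LIPE fell (-0.81 ± 0.16, trend removed -0.48, adjusted p = 0.000182). In OE none of the 9 rose, 2 fell and 7 did not pass (median -0.0410). STRA6, the membrane receptor that imports retinol, had 17.2, 16.2 and 14.9 CPM in Control, 16.0, 12.1 and 12.5 in KO and 5.75, 4.74 and 3.06 in OE. It fell in OE by -1.86 ± 0.22 (adjusted p = 1.55e-06) with every OE library below all others, and in KO had -0.25 ± 0.20 (adjusted p = 0.313, trend removed 0.27). LRP1 also fell in OE (-0.50 ± 0.12, adjusted p = 0.00341), and the acyltransferase DGAT1 had 0.27 ± 0.10 there (adjusted p = 0.0614) and passed in KO with the trend removed only (0.11, trend removed 0.39, adjusted p = 0.0023).

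LRAT, which esterifies retinol for storage, had 7.78 ± 0.756, 9.61 ± 1.23 and 5.55 ± 2.39 CPM in Control, KO and OE (adjusted p = 0.333 and 0.246), and it passed in OE without OE replicate 3 (0.0204). CRABP1 had no counts. The retinyl ester hydrolase CES1 had 34 counts over Control, 0 over KO and 11 over OE, at least 9.51-fold lower in KO with a floor of 3 counts over the group. The retinol carrier RBP4 had 0 counts over Control and 4, 24 and 2 in the KO libraries, at least 11.9-fold higher by the same floor, with most of its reads in KO replicate 2. Both were named after their values were seen, were below the filter for testing, and have limits that cover counting error at most.

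Among 11 tested genes of retinol and retinal oxidation and reduction (21 listed), 6 rose, 1 fell and 4 did not pass in KO (4, 0 and 7 with the trend removed), with a median of 0.74 (trend removed 0.39). AKR1C3, an aldo-keto reductase that also reduces retinaldehyde, had 56.4, 58.6 and 53.0 CPM in Control, 151, 177 and 166 in KO and 33.0, 28.2 and 30.7 in OE. The 3 groups did not overlap, and AKR1C3 rose in KO (1.55 ± 0.09, trend removed 1.26, adjusted p = 9.51e-12) and fell in OE (-0.87 ± 0.10, adjusted p = 1.04e-06). Its relative AKR1B10, a retinal reductase, had 24.0, 19.1 and 21.7 CPM in Control, 41.0, 37.1 and 32.0 in KO and 11.8, 5.95 and 6.56 in OE. It fell in OE (-1.43 ± 0.20, adjusted p = 1.21e-05) and rose in KO (0.77 ± 0.18, adjusted p = 0.000856), although not with the trend removed (0.39, adjusted p = 0.0713). Near-identical relatives make the counts of both reductases uncertain. The alcohol dehydrogenase ADH5 (0.92 ± 0.09, trend removed 0.72, adjusted p = 7.53e-09) and the aldose reductase AKR1B1 (0.74 ± 0.09, trend removed 0.72, adjusted p = 6.41e-07) rose in KO.

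In OE, 1 gene of this list rose, 3 fell and 7 did not pass (median -0.11). The retinol dehydrogenase RDH16 had 3.12 ± 0.322 CPM in Control, 7.23 ± 0.755 in KO and 1.58 ± 0.244 in OE. It fell in OE (-0.97 ± 0.33, adjusted p = 0.0431), a call that was lost when any of the 9 libraries was left out (adjusted p = 0.051 to 0.133), and had 1.21 ± 0.30 in KO (trend removed 1.13, adjusted p = 0.0015). The gene that rose in OE was HSD17B6, named after its values were seen, with 0 to 6 counts in Control and 11 to 24 in OE libraries. SDR16C5, a retinol dehydrogenase of epithelia, had 2 counts in all.

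Of the 6 genes of retinoic acid breakdown, CYP26A1 had no counts, nor had CYP26C1 and CYP2C18, named after their values were seen. CYP26B1 had 2.95, 3.05 and 3.60 CPM in Control, 2.17, 2.02 and 2.37 in KO and 3.76, 3.43 and 4.38 in OE. It did not pass in KO (-0.55 ± 0.35, trend removed -0.34, adjusted p = 0.188) or OE (0.28 ± 0.32, adjusted p = 0.616), although KO and Control libraries did not overlap. CYP3A5 fell in OE, from 18.1 ± 1.40 to 8.86 ± 2.43 CPM (-1.01 ± 0.18, adjusted p = 0.00031), and had -0.07 ± 0.18 in KO (adjusted p = 0.762, trend removed 0.13). CYP2S1 had 0.22 ± 0.17 in KO (trend removed 0.25, adjusted p = 0.266) and -0.43 ± 0.17 in OE (adjusted p = 0.0767), and passed in OE with the trend removed (0.0491). The list counted 0 rises and 0 falls of 3 in KO (median -0.0707) and 0 rises and 1 fall in OE (median -0.43); 0 genes passed in KO by edgeR, 0 at an unadjusted p under 0.05 and 0 by DESeq2.

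Among 12 tested other retinoid receptors and partners of RXR (15 listed), 1 rose, 5 fell and 6 did not pass in KO (4, 2 and 6 with the trend removed; median -0.0890, trend removed 0.0704). PPARD, which FABP5 can supply with ligand, had 86.3, 101.02 and 84.0 CPM in Control, 49.3, 46.4 and 49.0 in KO and 109, 126 and 102 in OE. It fell in KO (-0.91 ± 0.10, trend removed -0.70, adjusted p = 1.18e-07). Its rise in OE (0.31 ± 0.10, adjusted p = 0.0272) did not pass when Control replicate 1 (0.115), Control replicate 3 (0.138) or OE replicate 2 (0.178) was left out. PPARG, a receptor of lipid synthesis, rose in KO from 49.4 ± 1.99 to 88.7 ± 6.99 CPM (0.84 ± 0.10, trend removed 0.68, adjusted p = 1.64e-07) and had 0.02 ± 0.10 in OE (adjusted p = 0.926). The orphan receptor NR2F2 fell in KO (-0.60 ± 0.09, trend removed -0.43, adjusted p = 5.50e-06) and in OE (-0.40 ± 0.09, adjusted p = 0.0019). PPARA fell in KO as fitted only (-0.63 ± 0.14, trend removed -0.18, adjusted p = 0.000434 and 0.242).

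In OE 1 of these receptors rose, 2 fell and 9 did not pass (median -0.0192). The thyroid hormone receptor THRB was among the falls (-0.45 ± 0.15, adjusted p = 0.042). This call did not survive leaving out Control replicate 2 (0.242), Control replicate 3 (0.0917), KO replicate 1 (0.0508), KO replicate 2 (0.0511), OE replicate 1 (0.13) or OE replicate 3 (0.0819). THRB passed in KO with the trend removed only (0.25, trend removed 0.52, adjusted p = 0.00591).

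Of 17 tested coregulators of the receptors (18 listed), 1 rose, 12 fell and 4 did not pass in KO (3, 10 and 4 with the trend removed). The list's median was -0.61, and -0.27 with the trend removed. Its falls stand beside 25.9% of all tested genes called lower as fitted and 20.5% with the trend removed. The histone methyltransferase KMT2D went from 86.5 ± 6.09 to 33.4 ± 6.81 CPM (-1.37 ± 0.13, trend removed -0.43, adjusted p = 7.96e-09), and the acetyltransferases EP300 (-0.95 ± 0.11, trend removed -0.45, adjusted p = 1.05e-07) and CREBBP (-1.04 ± 0.12, trend removed -0.32, adjusted p = 1.11e-07) fell as well. TBL1X, a subunit of corepressor complexes named after its values were seen, had 136 counts over Control, 2 over KO and 345 over OE. Its level was 57.1-fold higher in Control than in KO, with a 95% counting interval of 15.5 to 476 that leaves out the spread between libraries. The fitted log2 fold change of TBL1X in KO was -5.63 ± 0.63 (trend removed -5.37). NRIP1, a corepressor that retinoic acid induces, had 86.9, 88.0 and 85.2 CPM in Control, 107, 120 and 121 in KO and 63.1, 60.6 and 45.2 in OE. It rose in KO (0.42 ± 0.10, trend removed 0.45, adjusted p = 0.00184) and fell in OE (-0.63 ± 0.11, adjusted p = 0.000147).

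In OE 3 coregulators rose, 2 fell and 12 did not pass (median -0.00213). The coactivator NCOA3 fell there (-0.37 ± 0.09, adjusted p = 0.00487, and 0.0514 without Control replicate 3) and in KO (-0.39 ± 0.09, trend removed -0.27, adjusted p = 0.00108). TRIM28 rose in OE (0.30 ± 0.08, adjusted p = 0.0059) and fell in KO as fitted only (-0.37 ± 0.08, trend removed -0.06, adjusted p = 0.000269 and 0.547).

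Among 21 tested genes that retinoic acid is known to raise in keratinocytes or other epithelia (26 listed), 9 rose, 4 fell and 8 did not pass in KO (8, 3 and 10 with the trend removed; median 0.30, trend removed 0.29). The phospholipase PLAAT4, first described as a tazarotene-induced gene, had 1.64, 1.69 and 1.46 CPM in Control, 8.19, 7.62 and 10.8 in KO and 2.88, 1.21 and 2.04 in OE. It rose in KO (2.46 ± 0.35, trend removed 2.07, adjusted p = 2.65e-06). The lipocalin LCN2 rose in KO from 14.9 ± 1.92 to 75.9 ± 12.4 CPM (2.35 ± 0.14, trend removed 2.06, adjusted p = 9.62e-12) and fell in OE to 9.50 ± 1.07 (-0.65 ± 0.16, adjusted p = 0.00523). The hyaluronan synthase HAS3 rose in KO (0.89 ± 0.13, trend removed 1.02, adjusted p = 3.16e-06). The falls in KO, named after their values were seen, were BHLHE40 (-0.52, trend removed -0.60), KRT13 (-0.29, trend removed -0.31), MUC1 and MUC4. MUC1 fell as fitted only (-0.72, trend removed -0.19, adjusted p = 0.000236 and 0.288). MUC4 (-3.49, trend removed -2.63) had few reads, with 72 counts over Control and 5 over KO.

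In OE 1 gene of this list rose, 7 fell and 13 did not pass (median -0.45). KRT4, a keratin of mucosal epithelia, had 147, 138 and 131 CPM in Control, 154, 145 and 150 in KO and 31.0, 23.5 and 26.0 in OE. It fell in OE (-2.37 ± 0.10, adjusted p = 7.76e-14) and did not pass in KO (0.11 ± 0.09, trend removed 0.02, adjusted p = 0.321). KRT15, a basal keratin, fell in OE from 2785 ± 29.95 to 1406 ± 269 CPM (-0.99 ± 0.10, adjusted p = 3.18e-07) and passed in KO with the trend removed only (0.19, trend removed 0.48, adjusted p = 0.000102). STRA6 belongs to this list too. The gene that rose in OE, named after its values were seen, was the hyaluronan synthase HAS2.

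Among 10 tested genes that retinoic acid is known to lower in keratinocytes (20 listed), 2 rose, 5 fell and 3 did not pass in KO (2, 6 and 2 with the trend removed; median -0.46, trend removed -0.75). TGM1, which crosslinks the cornified envelope, fell (-1.72 ± 0.11, trend removed -1.60, adjusted p = 1.11e-11), and so did the wound keratins KRT6A (-1.59 ± 0.08, trend removed -1.67, adjusted p = 1.26e-12) and KRT17 (-0.82 ± 0.08, trend removed -0.82, adjusted p = 2.67e-08). The suprabasal keratin KRT10 rose (0.90 ± 0.11, trend removed 0.62, adjusted p = 6.70e-07), as did CASP14, named after its values were seen. CASP14 had few reads, with 8, 6 and 4 counts in Control and 34, 8 and 34 in KO, where replicate 2 was close to Control. Keratinocyte markers summed to less in KO than in the other groups, as given above, and their part in these values was not tested.

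In OE 3 genes of this list rose, 3 fell and 4 did not pass (median 0.28). SPRR1B, a cornified envelope precursor, rose in OE from 14.5 ± 0.964 to 27.3 ± 5.92 CPM (0.92 ± 0.17, adjusted p = 0.0003) and passed in KO with the trend removed only (-0.20, trend removed -0.75, adjusted p = 0.000323). KRT17 rose (0.46 ± 0.08, adjusted p = 0.0003) and KRT16 fell in OE (-0.58 ± 0.10, adjusted p = 0.000173) and in KO (-0.72 ± 0.10, trend removed -0.74, adjusted p = 2.63e-06). KRT6A had 0.22 ± 0.08 in OE (adjusted p = 0.0607), and passed there without KO replicate 2 (0.0457), KO replicate 3 (0.0378) or OE replicate 1 (0.0495). The rise of TGM1 in OE (0.32 ± 0.09, adjusted p = 0.019) did not pass when Control replicate 2 (0.0506), Control replicate 3 (0.109), OE replicate 1 (0.0628) or OE replicate 2 (0.0648) was left out. The fall of KRT10 there (-0.36 ± 0.12, adjusted p = 0.0318) did not pass when Control replicate 1 (0.158), Control replicate 2 (0.0954) or OE replicate 2 (0.177) was left out. Reads shared among near-identical keratin genes make single keratin counts uncertain.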

How the data were processed

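Poly-A RNA of N/TERT keratinocytes was sequenced as paired-end reads, per the labels' protocols. The deposited files hold whole-number read counts per gene (60671 genes), made by the authors with featureCounts of Subread 1.5.2 against Ensembl 101 on GRCh38, per the file headers. For featureCounts the submitters' processing notes give version 0.1.0, beside HISAT2 1.03, FastQC and DESeq2. No option for read pairs, strand or multi-mapping reads is set in the headers, and 64.5% to 70.3% of counts from 1 to 10 in a library were even, so mates may be counted apart and counting intervals are too narrow. Counts were not normalized before deposit.

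The 9 members and the 7 gene lists were chosen with earlier results of these data known. Groups came from the titles. Counts were fitted with edgeR 4.0.16 in R 4.3.3 (quasi-likelihood, TMM scaling, filterByExpr with a minimum count of 10 leaving 13390 genes, all 9 libraries, group as the only term), with Benjamini-Hochberg adjustment and two-sided tests. CPM use TMM-scaled library sizes, and CPM per kb also the exon length. The common biological coefficient of variation was 10.2%. The trend was removed by a loess offset (span 0.3) per library over log2 exon length and GC content (known for 13341 of the tested genes, from GENCODE on the same build). Log2 CPM for likeness used a prior count of 2. Named were all members, SGPL1, the 4 genes of each list with the smallest p in KO and the 3 in OE, and 13 genes by name. Other alternatives were DESeq2 1.42.0 and its size factors, other filters, fewer libraries and a block for the replicate number. Replicates differed by more than sampling noise (chi-square per degree of freedom 2.74 to 11.7). Scripts were tested on simulated data. Promoters are from RefSeq. Some listed genes are not reported here.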

Additional observations from a re-analysis of the deposited data

How the results depend on the processing

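The number of genes, retinoid genes and pathway genes called stayed within 1.5 times the reported count under every alternative run. Leaving out each library in turn gave 6056 to 7201 genes in KO against Control, 1729 to 2585 in OE against Control and 6893 to 7673 in KO against OE. Removing the length and GC trend turned the KO sign of RARG (0.056), RXRA (0.41), STRA6 (0.27), CYP3A5 (0.13) and RXRB (0.10). With the trend removed and the replicate block, these were 0.055, 0.40, 0.26, 0.14 and 0.098. In KO against OE, removing the trend also turned the sign of RARA, from -0.30 to 0.05. With a library left out, KO values of RXRB ran from -0.094 to 0.050 (positive without KO replicate 3). Outside the 9 retinoid genes, OE values of 5 named genes that were not called there changed sign. FABP5 ran from -0.18 to 0.037 (positive without OE replicate 1, 0.016, or OE replicate 2). PNPLA4 ran from -0.11 (without Control replicate 2) to 0.21. PPARG ran from -0.027 (without OE replicate 3, and -0.010 without Control replicate 2) to 0.05. PPARA ran from -0.23 to 0.018 (without OE replicate 3). KMT2D ran from -0.077 (without OE replicate 2, and -0.010 without Control replicate 1) to 0.12. The cause of the other shifts was not tested. Over all alternatives, fold changes of the 9 genes moved by less than the SD between replicates in 437 cases, by more in 18 and reversed in 4; those of the other named genes kept their side of the threshold in 1256, gained it in 19, lost it in 36 and reversed in 15. Deviations of libraries with the same replicate number correlated between -0.0772 and 0.066, and those with different numbers between -0.0859 and 0.109. No pairing by number was visible in these values, and the labels do not state whether samples were paired. The replicate block gave 6907 genes in KO against Control, 2468 in OE against Control and 7669 in KO against OE. Depth limits DHRS9, RARB and other genes with few counts most.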
